A study of Mus musculus with 6 samples.

Results

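The Hedgehog ligands and response genes described here are 9 genes, found by symbol among the 38693 named genes of the deposited count table: the ligands Shh and Ihh, the receptor Ptch1, the signal transducer Smo, the coreceptor Gas1, the ligand trap Hhip and the transcription factors Gli1, Gli2 and Gli3. All 9 were found and all 9 passed the filter on low values, which asked for a normalized count of 10 or more in 3 or more of the 6 libraries. RNA was sequenced from the neck region of the gastric corpus, cut from unfixed frozen stomach sections by laser capture microdissection, a method that lifts a chosen area of tissue from a slide. Wild-type mice (CLDN18+/+) were compared with mice lacking claudin 18 (CLDN18-/-), a tight junction protein of the gastric epithelium, with 3 libraries per genotype. Both groups were of strain B6:129S5. Their age is 7 weeks by the sample labels but 7 days by the series design text, and the 2 were not reconciled. No treatment is named for either group, and neither the Cldn18 allele nor the way in which sections were assigned to libraries is given in the sources used here. The labels do not state that each library is a separate animal, so p-values measure the spread between libraries, which could be technical.

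Hedgehog proteins are secreted, lipid-modified ligands. In their absence the receptor Ptch1 holds the membrane protein Smo inactive, and binding of a ligand to Ptch1 releases Smo, so that Gli transcription factors leave the primary cilium and switch on target genes. Gli1, Ptch1 and Hhip are themselves such targets and are widely used as readouts of the pathway. In the stomach, Shh is known as a product of acid-secreting parietal cells and other gland cells, Ihh is known from the surface pit epithelium, and the Gli factors act largely in the mesenchyme beneath the epithelium.

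The libraries held 37640881 to 52798211 reads on genes, of which the single locus Gm26924 took 38.6% to 45.4%. Transcripts of the mitochondrial genome took 3.29% to 4.29% of reads in wild-type and 1.25% to 1.56% in the knockout. The share of processed pseudogenes was 0.144%, 1.08% and 0.531% in wild-type replicates 1, 2 and 3 and 0.104% to 0.118% in the knockout, so wild-type replicates 2 and 3 stood apart, and the counts of each list below are also given without them where they differ. Cldn18 itself was at 30498, 21210 and 23241 normalized counts in wild-type libraries and 13035, 16798 and 15818 in knockout libraries, where the group mean was 60.9% of wild-type (log2 difference -0.71 ± 0.20 SE, limma adjusted p = 0.0134). The groups did not overlap, but the call was lost without knockout replicate 1 (log2 difference -0.60, limma adjusted p = 0.0896). A count over the whole gene can hold reads from outside a deleted stretch, so it is a weak check of the genotype. The neck markers Muc6 and Tff2, a mucin and a trefoil peptide of mucous neck cells, were abundant in wild-type, at 30908 ± 3442 and 50797 ± 11870.4 normalized counts (SD, n = 3). Summed over the list, neck markers were at 81133 to 106242 in wild-type libraries. The sums were higher for chief, surface pit and parietal cells (1502220 to 2498220, 884135 to 1498870 and 433335 to 563284). Sums of the other listed cell types were lower than that of neck cells.

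The 2 genotypes differed widely. Of 17409 genes tested with limma, 44.7% were called at an adjusted p under 0.05, 23.2% higher and 21.4% lower in the knockout, and for 55.2% the 3 knockout values and the 3 wild-type values did not overlap. Of the 9 Hedgehog genes, 3 were called, or 33.3%. Ihh was higher, Shh and Gas1 were lower, and in these 3 genes the groups did not overlap. The other 6 genes, Ptch1, Smo, Hhip, Gli1, Gli2 and Gli3, were not called, with log2 differences from -0.13 to 0.41. The members' share of calls was below that of all genes and is no result about them as a set. The median log2 difference, knockout minus wild-type, was 0.09 over the 9 genes and -0.02 over all genes tested.

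**Figure D1:**
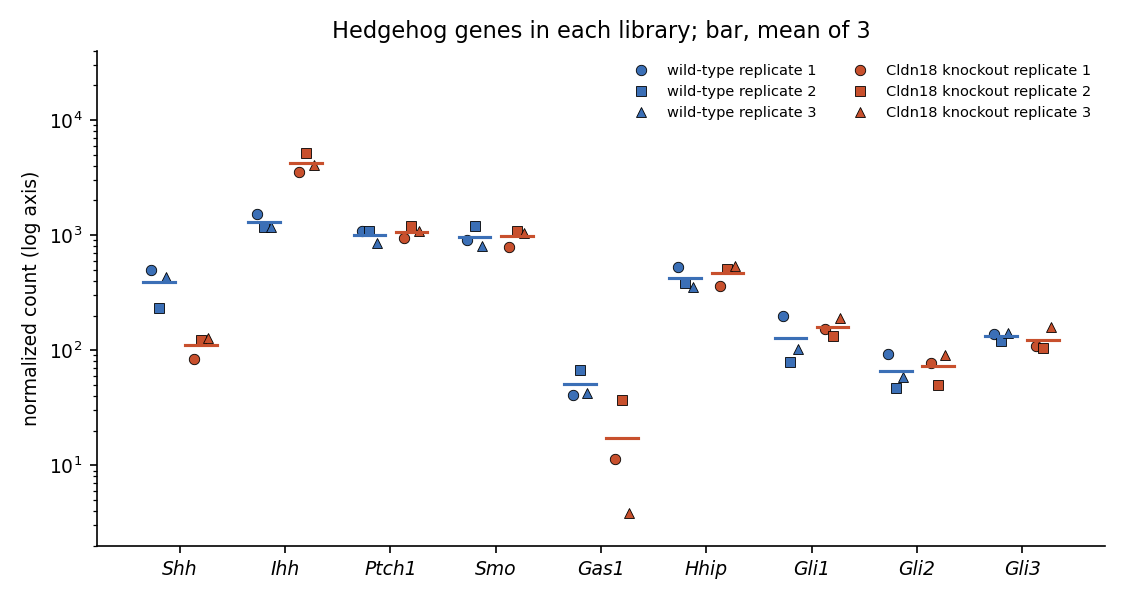
Normalized counts of the 9 Hedgehog genes in each library, on a log axis; each point is 1 library (3 wild-type, 3 Cldn18 knockout) and bars mark group means. The knockout points lie wholly above wild-type for Ihh and wholly below for Shh and Gas1, and the points of the other 6 genes overlap.

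The upstream sequences of the members are shown first. Among the members, the ligands changed in opposite directions, and the pathway targets Ptch1, Hhip and Gli1 were not called. RefSeq promoter windows (GRCm38.p6) were matched for 7 of the 9 genes, all but Shh and Gli1. The windows of Ptch1 (chr13:63565736-63565985) and Gli3 (chr13:15463473-15463722) lie inside the gene bounds given below. Sequence upstream of those bounds was not searched for these genes. The 250 bases before the start of Ihh, the member with the highest level and a higher level in the knockout, lie at chr1:74951673-74951922 on the minus strand. Capitals mark GC boxes, the 6-base motif GGGCGG or its reverse complement CCGCCC, which Sp family factors bind:
Ihh: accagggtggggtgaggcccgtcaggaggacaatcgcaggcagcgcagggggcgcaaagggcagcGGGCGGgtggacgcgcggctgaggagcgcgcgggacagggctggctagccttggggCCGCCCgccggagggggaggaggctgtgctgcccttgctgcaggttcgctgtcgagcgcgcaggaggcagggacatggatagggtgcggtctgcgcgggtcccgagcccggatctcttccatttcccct
The window holds 2 GC boxes and is 72% G and C. A GC box was present in 6 of the 7 windows, all but that of Smo, and in 32.7% of 32851 mouse promoter windows of the same length, searched on both strands.

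The site bound by Gli factors was searched as GACCACCCA or TGGGTGGTC, and its 7-base core, which lies within the full site, as ACCACCC or GGGTGGT. The full site was in 0.225% of all windows and in none of the 7. The core was in 3.92% of all windows and in 1 of the 7, that of Gli2, where it begins 205 bases before the start. The stretch around it, at chr1:119053806-119053836 on the minus strand, is shown with the core in capitals:
Gli2: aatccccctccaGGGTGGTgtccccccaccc
A match to these letters is a description and not a bound site, and their absence from a window of this length says nothing of binding elsewhere.

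Shh, which encodes Sonic hedgehog, was at 502, 232 and 434 normalized counts in wild-type libraries 1, 2 and 3 and at 83.1, 122 and 128 in the knockout. Every knockout library was below every wild-type library, although wild-type replicate 2 was lower than the other wild-type libraries. The group means were 389 ± 140.3 and 111 ± 24.3 (SD, n = 3 each), so that the knockout held 28.5% of the wild-type mean. Shh fell by 1.75 on the log2 scale (SE 0.31, 95% interval -2.45 to -1.06, limma adjusted p = 0.00121). These values rest on 410, 188 and 447 reads in wild-type libraries and 88, 165 and 133 in knockout libraries. In a captured tissue area, fewer cells that make a transcript and less of it per cell cannot be told apart.

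The gene, ENSMUSG00000002633.4, lies at chr5:28456815-28467256 on the minus strand (mm10) and its exons overlap those of the plus-strand transcripts 9530036O11Rik and Gm26894. Both of these were also lower. Gm26894 was at 159, 114 and 128 normalized counts in wild-type libraries and 43.4, 49.5 and 51.9 in knockout libraries (log2 difference -1.44 ± 0.30 SE, limma adjusted p = 0.00275). 9530036O11Rik was at 50.2, 32.1 and 59.2 against 24.6, 2.96 and 10.6 (log2 difference -2.15 ± 0.69 SE, limma adjusted p = 0.0261). The sources used here do not say whether counting used strand, so reads of Shh and of these neighbours cannot be told apart where they overlap.

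Markers of parietal cells moved in the same direction as Shh. All 10 of 10 listed markers were lower, by -7.99 to -1.28 on the log2 scale, beside 21.4% of all genes tested. Among them, Slc26a7 passed the filter only through its wild-type libraries. The summed normalized count of the list went from 433335 to 563284 in wild-type to 5379 to 12919.7 in the knockout. Atp4a and Atp4b, the subunits of the proton pump, were lower by -6.88 and -6.87, and no listed marker was at 0 in a whole group. Markers of chief cells, the enzyme-secreting cells at the gland base, were also lower in 5 of 5 (4 without wild-type replicates 2 and 3), with sums of 1502220 to 2498220 against 39487 to 73417. The log2 differences of the chief cell markers ran from -13.72 (Chia) to -0.67 (Pga5). Pgc alone, at a mean of 1837300 in wild-type and 47251.5 in the knockout, made up most of the chief cell sums. The part of parietal and chief cells in the fall of Shh was not tested.

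Ihh, which encodes Indian hedgehog, was at 1512, 1179 and 1182 normalized counts in wild-type libraries and at 3544, 5139.7 and 4082 in knockout libraries. The lowest knockout library lay well above the highest wild-type library. The means were 1291 ± 191 and 4255 ± 812 (SD, n = 3 each), a ratio of 3.30. Ihh rose by 1.71 on the log2 scale (SE 0.17, 95% interval 1.34 to 2.09, limma adjusted p = 2.92e-05). The gene, ENSMUSG00000006538.12, lies at chr1:74945315-74951672 on the minus strand and its exons overlap no other annotated gene.

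Markers of the surface pit cells, the mucous cells that line the gastric surface, did not move as one with Ihh. Of 8 markers, 4 were lower: Psca, Capn9 and the gastrokines Gkn1 and Gkn2 (log2 differences -2.84, -2.45, -1.62 and -1.25). Under quantile normalization Gkn1 and Gkn2 were at -0.42 and -0.03 and not called. Krt20 alone, a keratin of mature surface cells, was higher (log2 difference 4.74). Muc5ac, Tff1 and Capn8 were not called (log2 differences -0.62, 0.21 and 0.18, limma adjusted p = 0.226, 0.658 and 0.643). The summed level of the list was 884135 to 1498870 in wild-type and 337683 to 584793 in the knockout. Gkn1 and Gkn2, the most abundant of the 8, weighed most in it. From wild-type to knockout, the mean of Gkn1 went from 404763 to 131234 and that of Gkn2 from 396250 to 165108. Markers of stratified squamous epithelium, which the corpus lacks, had a summed level of 528 to 5952 in wild-type and 4744 to 14477 in the knockout, so the groups overlapped. Of 8 tested, 2 were higher (Ivl and Sprr1a) and 3 lower (Krt5, Krt14 and Krt6a), and Sprr3, not tested, was at 0 in the knockout. Without wild-type replicates 2 and 3, 3 were higher and Krt5 alone was lower. Of 6 mucous neck cell markers 2 were higher and 3 lower, with sums of 81133 to 106242 in wild-type and 66406 to 156373 in knockout libraries. Of 6 enteroendocrine markers 4 were higher and 1 lower, with sums of 22254 to 35411 against 35858 to 44309.6, and without wild-type replicates 2 and 3 only 2 were higher. The part of these cells in the rise of Ihh was not tested.

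Levels of different genes can be compared only per length of exon. Per kilobase, Ihh was the more abundant ligand in every library. The level of Ihh was 496, 387 and 388 normalized counts per kb in wild-type libraries and 1163, 1686 and 1339 in knockout libraries, and that of Shh was 176, 81.5 and 152 against 29.2, 42.8 and 44.9. Dhh, which encodes Desert hedgehog and is known mainly from the testis and peripheral nerve, was far lower, at 2.23, 1.12 and 1.55 against 16.5, 10.6 and 25.8 per kb.

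Of the summed level of the 3 ligands per kb, Ihh made up 73.5%, 82.4% and 71.6% in wild-type libraries and 96.2%, 96.9% and 94.99% in knockout libraries. Shh made up 26.1%, 17.4% and 28.1% of it in wild-type libraries and 2.42%, 2.46% and 3.18% in knockout libraries. The shares did not overlap between the genotypes. The ratio of Ihh to Shh was 2.81, 4.74 and 2.54 in wild-type libraries and 39.8, 39.4 and 29.8 in knockout libraries. The mean log2 ratio differed by 3.48, or 11.1-fold (two-sided exact permutation p = 0.1, the smallest value that 3 against 3 libraries allows). Every knockout library was higher in Ihh and lower in Shh than every wild-type library, so this ratio had to separate the groups. Its p-value and the shares largely restate the changes of those 2 genes.

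The ligands together were more abundant in the knockout. The summed level of the 3 ligands was 674, 469.6 and 542 normalized counts per kb in wild-type libraries and 1209, 1739.6 and 1409.9 in knockout libraries. All knockout libraries were higher, by 1.37 in mean log2 or 2.59-fold (two-sided exact permutation p = 0.1, again the smallest possible). These sums count transcripts and not secreted ligand.

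**Figure D2:**
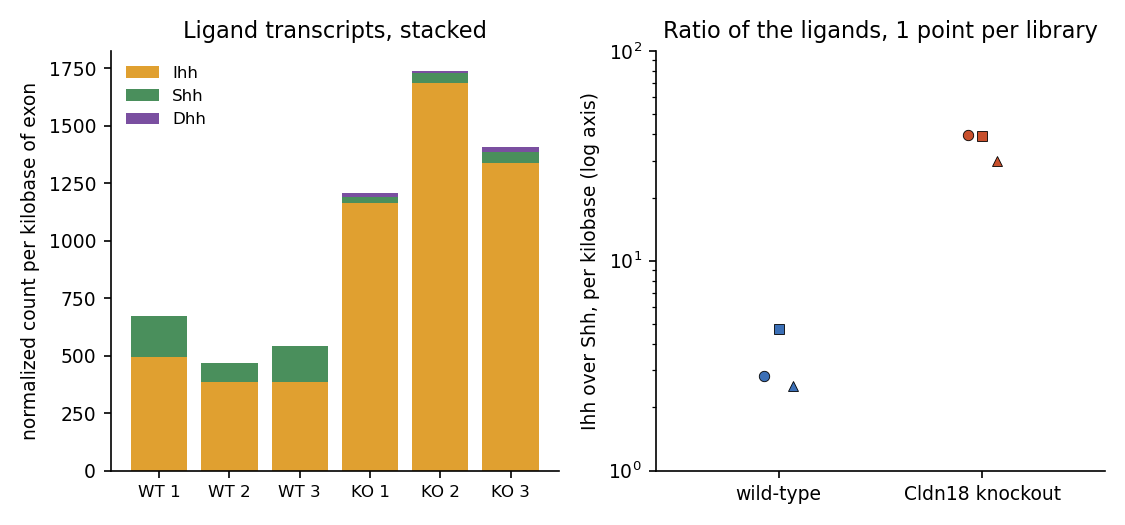
Left, stacked levels of Ihh, Shh and Dhh in normalized counts per kb of exon, where each bar is 1 library. Right, ratio of Ihh to Shh per kb on a log axis, where each point is 1 library. Ihh was 71.6% to 82.4% of the ligand sum in the wild-type libraries and 94.99% to 96.9% in the knockout libraries.

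Ptch1 and Smo, the receptor and the transducer it restrains, were at near levels in the 2 genotypes. Ptch1 was at 1086, 1076 and 853 normalized counts in wild-type libraries and 935, 1189 and 1077 in knockout libraries, with overlapping groups. The log2 difference of Ptch1 was 0.09 ± 0.16 SE (limma adjusted p = 0.682), and the 95% interval runs from 0.833 to 1.36 times the wild-type level. Smo was at 902, 1193 and 803 against 795, 1081 and 1052, also overlapping. The log2 difference of Smo was 0.02 ± 0.19 SE (limma adjusted p = 0.936), with an interval of 0.760 to 1.36 times. The intervals hold no change and also modest changes either way, so a difference of that size was not detectable with 3 libraries a group. The signs of both differences depended on the scaling.

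Ptch1 (ENSMUSG00000021466.12) lies at chr13:63508328-63573598 on the minus strand and Smo (ENSMUSG00000001761.7) at chr6:29735503-29761365 on the plus strand, and the exons of both overlap no other annotated gene. The ligand sum was 2.59-fold higher in the knockout. The intervals of the pathway targets Ptch1, Hhip and Gli1 reached 1.36, 1.55 and 2.27 times wild-type. Whether the level of ligand transcripts bears on these genes was not tested.

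Gas1, a cell surface coreceptor that helps ligands reach Ptch1, was at 40.4, 67.9 and 42.7 normalized counts in wild-type libraries and 11.3, 36.9 and 3.84 in knockout libraries. The groups did not overlap, but knockout replicate 2 lay close to the lowest wild-type library. Its log2 difference was -1.93 ± 0.70 SE (95% interval -3.48 to -0.37, limma adjusted p = 0.0455). It rests on 33, 55 and 44 reads against 12, 50 and 4, and the call was lost with edgeR (log2 difference -1.46, adjusted p = 0.131) and in most other alternatives. In the authors' deposited table Gas1 also missed the threshold, with a log2 fold change of -1.54 and an adjusted p of 0.113. The gene, ENSMUSG00000052957.8, lies at chr13:60174405-60177365 on the minus strand. Of its 2961 exonic bases, 589 overlap the plus-strand gene Gm48488, which is absent by that symbol from the deposited counts.

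Hhip, a membrane protein that binds and sequesters Hedgehog ligands and is induced by them, was at 528, 384 and 352 normalized counts in wild-type libraries and 363, 505 and 534 in knockout libraries. The ranges overlapped almost fully. The log2 difference of Hhip was 0.15 ± 0.22 SE (limma adjusted p = 0.605), with an interval of 0.795 to 1.55 times wild-type. The gene, ENSMUSG00000064325.4, lies at chr8:79965851-80058006 on the minus strand. It shares 175 exonic bases with Gm27820 on the other strand, which is absent by that symbol from the deposited counts.

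Gli1, the activator whose transcription is the most direct readout of the pathway, was at 198, 79.0 and 102 normalized counts in wild-type libraries and 153, 132 and 189 in knockout libraries. The highest value of all belonged to wild-type replicate 1, and the other 2 wild-type libraries were below every knockout library. The log2 difference was 0.41 ± 0.35 SE (limma adjusted p = 0.363), with a 95% interval of 0.782 to 2.27 times wild-type. Without wild-type replicate 1 the log2 difference was 0.79 with a limma adjusted p of 0.0448, and with replicate 1 as the lone wild-type library it was -0.34, so 1 library decided the value. Gli1 (ENSMUSG00000025407.7, chr10:127329882-127341974, minus strand) shares 62 exonic bases with Arhgap9 on the other strand. Arhgap9 was at a mean of 30.2 in wild-type and 56.4 in the knockout and was not called (limma adjusted p = 0.119). The exons of Gli1 also overlap Gm47200, which is absent by that symbol from the deposited counts.

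Gli2, the main activator of the response, was at 91.8, 46.9 and 58.3 normalized counts in wild-type libraries and 77.4, 50.2 and 91.3 in knockout libraries (log2 difference 0.16 ± 0.38 SE, limma adjusted p = 0.755). Gli3, which acts mostly as a repressor when ligand is absent, was at 137, 121 and 141 against 109, 105 and 158 (log2 difference -0.13 ± 0.27 SE, limma adjusted p = 0.731). Both sets of values overlapped between the genotypes. The 95% intervals were 0.625 to 2.01 times wild-type for Gli2 and 0.610 to 1.38 times for Gli3. Gli2 (ENSMUSG00000048402.14) lies at chr1:118834132-119053619 on the minus strand and Gli3 (ENSMUSG00000021318.15) at chr13:15463235-15730026 on the plus strand, where it shares 188 exonic bases with Gm6556, which was at 0 to 1.89 normalized counts.

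**Figure D3:**
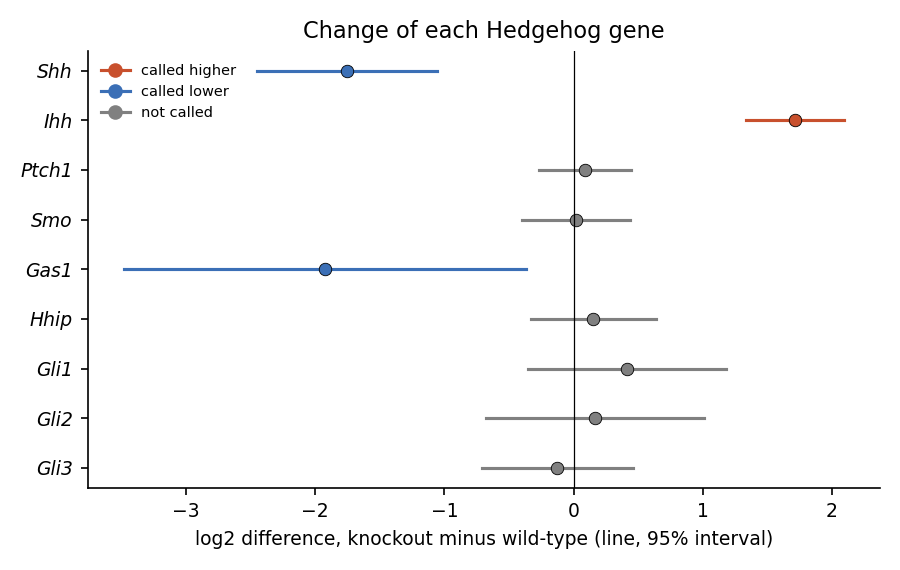
Log2 difference of each of the 9 genes, knockout minus wild-type, with its 95% interval (limma, 3 libraries per genotype). The intervals of Ihh, Shh and Gas1 lie to one side of 0, and those of Ptch1, Smo, Hhip, Gli1, Gli2 and Gli3 cross it.

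Markers of the stroma, where the response is known to take place, were not uniform. Of 8 fibroblast markers 3 were higher (Dcn, Lum and Pdgfra) and none lower, with summed normalized counts of 25425 to 42366 in wild-type and 29607 to 52035 in the knockout. Without wild-type replicates 2 and 3 Pdgfra alone was higher and Dpt was lower. Of 8 smooth muscle markers none was higher and 4 were lower, with sums of 11215 to 16109 against 10596 to 12837 (3 lower without those 2 libraries, and none in the authors' deposited table). Endothelial markers were lower in 5 of 7 tested, with sums of 4333 to 7217 against 2001 to 2969.9. Markers of enteric neurons and glia were lower in 5 of 8, with sums of 590.0 to 3882 against 193 to 296, and wild-type replicate 2 was the highest. Only 2 were lower without wild-type replicates 2 and 3. Immune markers were higher in 3 of the 5 tested, with sums of 867 to 1251 against 1348 to 2433. No listed marker of these 5 kinds that was tested was at 0 in a whole group, and their part in the values of Gas1, Hhip and the Gli genes was not tested.

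**Figure D4:**
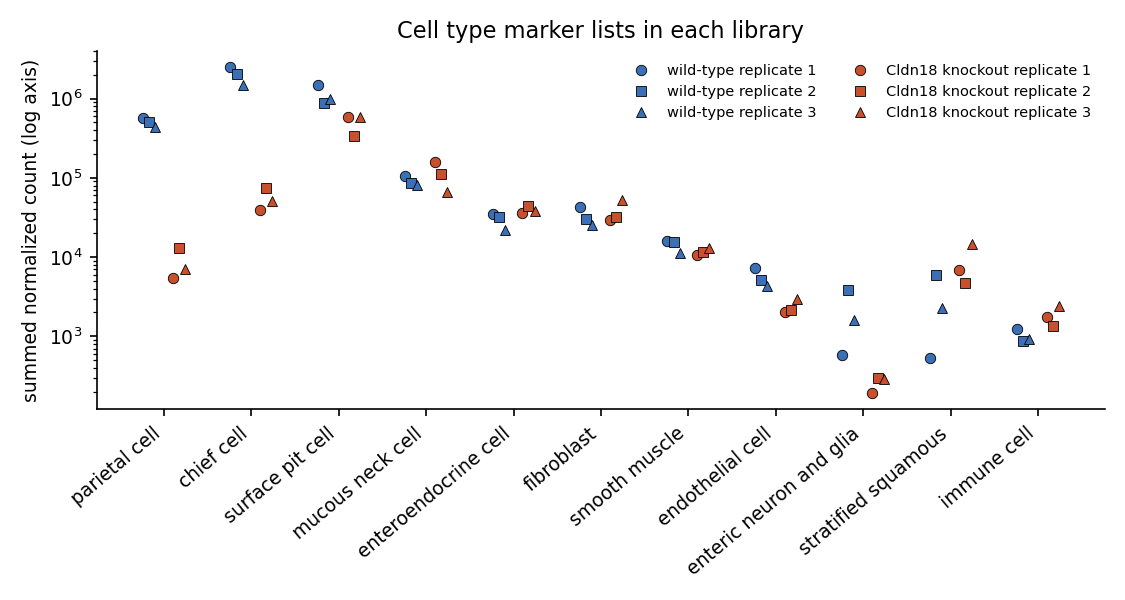
Summed normalized counts of the marker lists in each library, on a log axis; each point is 1 library. The parietal and chief cell sums are far lower in the knockout libraries, while the fibroblast sums overlap between the genotypes.

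Ordered by level per kb in wild-type, Ihh came first at 424 ± 62.7, followed by Smo at 172 ± 36.0 and Shh at 137 ± 49.3, whose ranges overlapped (normalized counts per kb, SD, n = 3). Ptch1 was next at 70.8 ± 9.3 and separate from its neighbours. Below it Hhip at 46.4 ± 10.3, Gli1 at 25.3 ± 12.7, Gas1 at 17.0 ± 5.2, Gli3 at 13.9 ± 1.1 and Gli2 at 9.56 ± 3.4 formed a run in which each overlapped the next. In the knockout Ihh at 1396 ± 266, Smo at 174 ± 28.0 and Ptch1 at 75.2 ± 9.0 were separate from one another. Shh, at 39.0 ± 8.5, now stood between Hhip at 51.5 ± 10.1 and Gli1 at 31.6 ± 5.9 and overlapped both. Gli3 at 12.9 ± 3.1, Gli2 at 10.6 ± 3.0 and Gas1 at 5.87 ± 5.86 came last and overlapped. The length used is the union of all annotated exons, which is long for Ptch1, at 14185 bases, and lowers its value.

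Across the 6 libraries, Gli1 and Gli2 varied together, with a Pearson r of 0.90 on the log2 scale. Both were highest in wild-type replicate 1, next highest in knockout replicate 3 and lowest in wild-type replicate 2. Ptch1 had an r of 0.78 with Smo and 0.78 with Hhip, and 0.23 with Gli1. Shh and Ihh had an r of -0.83, and Ihh and Gas1 one of -0.65. These values describe 6 libraries that share their scaling and the genotype difference.

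Among 11407 genes with a mean of at least 100, those with the pattern most like Shh were Cutal (r 0.997), Glt28d2 (0.997), Ilvbl (0.991), Zbtb20 (0.991) and Pik3c3 (0.990), all called lower with log2 differences from -1.37 to -0.56. Zbtb20 encodes a zinc finger transcription factor and Pik3c3 a lipid kinase of autophagy. Those most like Ihh were Pold3 (0.999), Cdc25b (0.997), Mvk (0.997), Pld1 (0.997) and Gen1 (0.997), all called higher with log2 differences from 0.88 to 1.90. Pold3 is a subunit of a replicative DNA polymerase, Cdc25b a phosphatase that promotes entry into mitosis and Mvk an enzyme of the cholesterol pathway. Those most like Ptch1 were Hdc (0.991), which makes histamine, and Ubxn2b (0.979), Kctd21 (0.979), Insrr (0.970) and Sorcs2 (0.965). For Gli1 they were Sptssb (0.992), Secisbp2 (0.992), B3galtl (0.992), Ttc39b (0.991) and Pdcd2l (0.986). None of the last 10 was called. These likenesses describe the same 6 libraries and carry no test. The directions and calls of these genes follow largely from how they were picked and are no further result.

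Of the genes that make, release and bind the ligand, 2 of 11 were called higher and 1 lower, beside 23.2% and 21.4% of all genes tested, with a median log2 difference of -0.09. Dhh was at 9.79, 4.94 and 6.80 normalized counts in wild-type libraries and 72.7, 46.5 and 113 in knockout libraries (log2 difference 3.22 ± 0.52 SE, limma adjusted p = 0.000694). It passed the filter only through its knockout libraries. Scube1, a secreted protein of the family that helps release lipid-modified ligands, was at 624, 501 and 389 against 949, 813 and 1483 (log2 difference 1.08 ± 0.24 SE, limma adjusted p = 0.00464). Gpc3, a cell surface proteoglycan that binds ligand and restrains signalling, was at 291, 185 and 169 against 86.9, 90.9 and 168 (log2 difference -0.92 ± 0.33 SE, limma adjusted p = 0.0408). Without wild-type replicates 2 and 3, 1 gene was higher and 1 lower, and Scube1 lost its call (log2 difference 0.74, adjusted p = 0.104). The call of Gpc3 was lost with edgeR (log2 difference -0.87, adjusted p = 0.0622) and in 8 of 20 alternatives in all.

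None of the 3 other receptors and coreceptors described here was called by limma on all 6 libraries, by edgeR or by limma at an unadjusted p under 0.05, with log2 differences from -0.86 to -0.37. In 5 of 20 alternatives 1 gene was called lower. Boc was at 157, 461 and 182 normalized counts in wild-type libraries against 88.8, 138 and 177 in knockout libraries, and its high value in wild-type replicate 2 sets much of the spread (limma adjusted p = 0.112). Cdon was at 487, 379 and 436 against 315, 359 and 327, without overlap (log2 difference -0.37 ± 0.18 SE, limma adjusted p = 0.114). Boc and Cdon act with Gas1 as coreceptors of Ptch1. Lrp2, an endocytic receptor that also binds Hedgehog ligands, was at 39.2, 19.8 and 52.4 against 27.4, 22.2 and 24.0.

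Among 19 intracellular transducers, 3 were called higher and 7 lower, with a median log2 difference of -0.22. Over all genes tested 44.7% were called, so this is close to the background. Sufu, which holds Gli factors in the cytoplasm and was named after its values were seen, had 407 ± 11.6 normalized counts in wild-type libraries and 581 ± 51.8 in knockout libraries (SD, n = 3 each; log2 difference 0.51 ± 0.16 SE, limma adjusted p = 0.0233). Gpr161, a receptor of the cilium that restrains the pathway, was at 154, 301 and 200 against 58.6, 82.0 and 89.4 (log2 difference -1.47 ± 0.31 SE, limma adjusted p = 0.00339). Tulp3, which carries such receptors into the cilium, was at 207, 174 and 163 against 297, 361 and 310 (log2 difference 0.83 ± 0.20 SE, limma adjusted p = 0.00710). Adrbk1, the kinase also known as Grk2 that phosphorylates Smo, was at 2407, 2602 and 1887 against 4209, 3636 and 4470 (log2 difference 0.84 ± 0.16 SE, limma adjusted p = 0.00153). Stk36, a relative of a fly Hedgehog kinase, was at 51.4, 147 and 97.1 against 43.4, 25.1 and 28.8 (log2 difference -1.49 ± 0.45 SE, limma adjusted p = 0.0196). Without wild-type replicates 2 and 3 the counts were 1 higher and 4 lower, and Stk36, Gpr161, Tulp3 and Sufu lost their calls (log2 differences -0.69, -1.02, 0.63 and 0.55, adjusted p = 0.370, 0.0820, 0.0750 and 0.0683).

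Of 18 genes known to respond to Hedgehog signals in gut mesenchyme or in other tissues, 17 were tested, of which 8 were called higher and 2 lower, beside 23.2% and 21.4% of all genes tested, with a median log2 difference of 0.61. Ccnd2, a cyclin that drives entry into the cell cycle, was at 4900, 3744 and 2687 in wild-type libraries and 18237, 19429 and 21390.2 in knockout libraries (log2 difference 2.42 ± 0.21 SE, limma adjusted p = 1.12e-05). It is expressed in many dividing cells and is not specific to Hedgehog. Foxl1, a forkhead factor of the subepithelial mesenchyme, was at 88.1, 69.2 and 41.8 against 182, 174 and 313 (log2 difference 1.74 ± 0.35 SE, limma adjusted p = 0.00245). Grem1, a secreted BMP antagonist, was at 4.90, 0 and 5.83 against 13.2, 45.8 and 28.8 (log2 difference 2.98 ± 0.90 SE, limma adjusted p = 0.0198) and passed the filter only through its knockout libraries. Osr1, a zinc finger factor of gut mesoderm, was at 63.7, 91.4 and 71.9 against 22.7, 25.1 and 36.5 (log2 difference -1.41 ± 0.38 SE, limma adjusted p = 0.0117).

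The forkhead genes Foxf1 and Foxf2 and the secreted factors Bmp4 and Wnt5a, established targets in the gut, were named after their values were seen. Foxf1 had 355 ± 114 normalized counts in wild-type libraries and 532 ± 118 in knockout libraries (limma adjusted p = 0.0790) and Bmp4 at 457 ± 63.4 against 609 ± 198 (limma adjusted p = 0.253), so neither was called. Foxf2 was at 274 ± 46.8 against 445 ± 104 (limma adjusted p = 0.0274) and Wnt5a at 523 ± 123 against 1139.6 ± 226 (limma adjusted p = 0.00125), all SD with n = 3. Without wild-type replicates 2 and 3 the list had 4 higher and none lower, and Foxf2, Grem1 and Osr1 lost their calls (log2 differences 0.43, 2.20 and -1.18, adjusted p = 0.266, 0.0754 and 0.133). The fibroblast marker Pdgfra was higher beside these genes, at 998 ± 247 against 3470.5 ± 949.8, and Col3a1 was not called, at 12017 ± 3228 against 10801 ± 3341. Their part in these values was not tested.

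Of 34 genes of the primary cilium, the organelle through which the signal passes, 1 was called higher and 9 lower, with a median log2 difference of -0.45. Over all genes tested 23.2% were called higher and 21.4% lower. The share of lower calls is near that background and is no result about cilium genes. The share of higher calls was below it, and the median over all genes tested was -0.02. The list was not tested as a set. Bbs4 and Bbs2, subunits of the complex that moves membrane proteins in the cilium, were at 242 ± 42.0 against 76.2 ± 14.6 and 279.99 ± 117 against 102 ± 7.1 (limma adjusted p = 0.000648 and 0.00406). Ift122, a part of the retrograde transport complex, was at 717 ± 57.1 against 277 ± 33.3 (log2 difference -1.37 ± 0.17 SE, limma adjusted p = 0.000125). Cep290, a protein of the transition zone at the base of the cilium, was the gene that was higher, at 443 ± 78.4 against 1176 ± 161 (log2 difference 1.41 ± 0.18 SE, limma adjusted p = 0.000159). Without wild-type replicates 2 and 3 the counts were 1 higher and 7 lower, and Bbs2 lost its call (log2 difference -0.83, adjusted p = 0.0789).

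**Figure D5:**
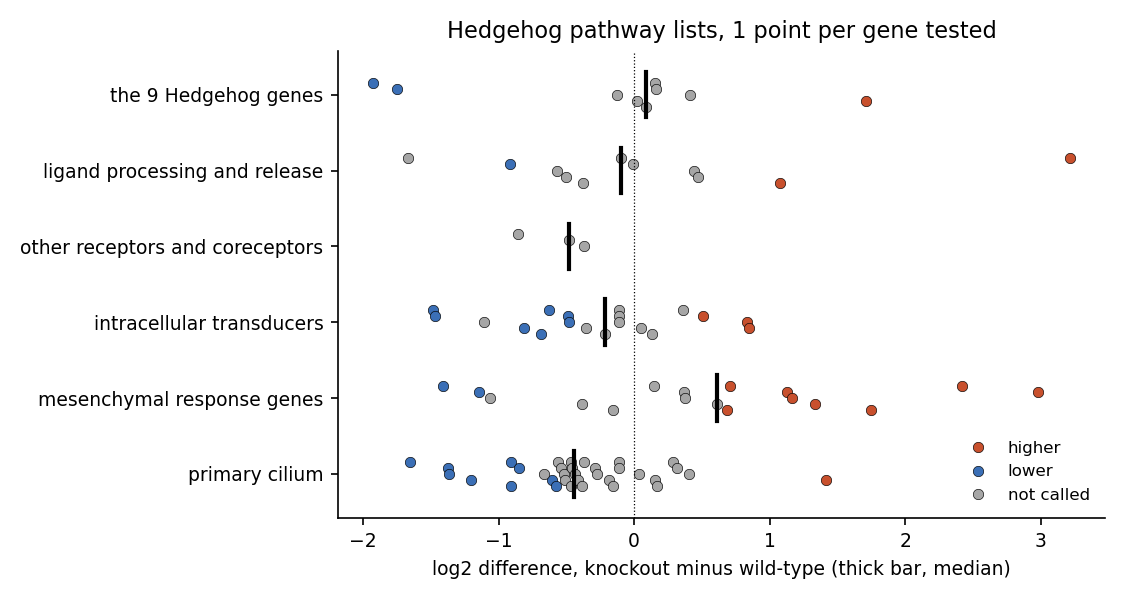
Log2 difference, knockout minus wild-type, of each gene of the Hedgehog set and of the 5 pathway lists; each point is 1 gene and filled colours mark genes called higher or lower by limma. The median was 0.61 for the mesenchymal response genes and -0.45 for the primary cilium genes.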

How the data were processed

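RNA from 3 wild-type and 3 Cldn18 knockout samples was compared, grouped by the genotype in the labels. The tools were STAR, featureCounts and DESeq and the genome mm10, per the submitters' processing notes. Their roles and versions, the annotation and the strandedness are not stated in the sources used here. The authors deposited normalized counts, a signal of 38720 rows, of which 27, named by a date, were left out. All values (100%) were whole multiples of 1 number per library within 0.05 reads, so reads could be recovered. The authors' deposited table of their comparison gives group means, p-values and a fold change, which is a ratio, and was used as an alternative.

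The test was limma 3.58.1 (R 4.3.3, lmFit and eBayes with a mean trend) on log2(normalized count + 1). It was two-sided, and Benjamini-Hochberg adjustment ran over the 17409 genes that reached 10 in 3 or more libraries. Adding 1 shrinks the log2 differences of low genes, but a mean of logs can still differ from the log of a ratio. For Gas1 the log2 difference was -1.93 by limma and -1.54 in the authors' deposited table. Genes were called at adjusted p under 0.05. Alternatives changed the pseudocount, filter, scaling, variance model, libraries and test, with edgeR 4.0.16, DESeq2 1.42.0 and limma-voom on recovered reads. The limma procedure was also run on simulated counts, in which a small set of genes was changed by known folds and the scaling was known. Far fewer genes changed there than were called here, so that run does not bear on the choice of scaling. Lengths and coordinates came from GENCODE M21, matched by symbol for 92.1% of rows.

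The genes, pathway lists and markers were chosen with earlier results of these data known. The rule for named genes took the 9 Hedgehog genes and Cldn18, up to 4 called genes of each pathway list by size of change, all genes of lists of up to 4, the 2 most abundant markers of each cell type, and the 5 genes most like Shh, Ihh, Ptch1 and Gli1. Other named genes, chosen after their values were seen, are Sufu, Foxf1, Foxf2, Bmp4, Wnt5a and single markers. Some genes the rule took are given only in their list's counts. The result for 1 gene is not reported here. Library totals of 37640881 to 52798211 reads limit the precision of genes with few reads, such as Gas1.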

Additional observations from a re-analysis of the deposited data

How the results depend on the processing

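Shh kept its direction and its call in all 20 alternatives, with log2 differences from -2.19 to -1.52, and Ihh in all 20, from 1.48 to 1.84. The other results were less steady, and where no reason is given the cause was not tested. Gas1 kept its direction in the 19 alternatives that tested it and lost its call in 13. Its log2 difference was -1.93 with no filter on low values and -1.93 with no mean trend (limma adjusted p = 0.0608 and 0.0857), -1.26 under quantile normalization, -1.46 with edgeR, -1.54 with DESeq2, -1.86 with limma-voom, -1.54 in the authors' deposited table, -1.66 without wild-type libraries 2 and 3, and -2.69 to -1.21 when each replicate was left out in turn. Accordingly 1 Hedgehog gene was called lower in place of 2 with no filter, with a minimum of 50, under quantile normalization, with no mean trend, with edgeR, DESeq2 and limma-voom, in the authors' deposited table and without wild-type libraries 2 and 3, and 1 to 2 in the leave-one-out fits. A minimum of 50 removed Gas1 from the test. The number called higher was 1 to 2 in the leave-one-out fits.

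The uncalled members had signs that turned. Ptch1 was at -0.044 under quantile normalization, -0.049 under upper quartile scaling, -0.032 without wild-type libraries 2 and 3 and -0.025 to 0.18 when each replicate was left out in turn. Smo was at -0.10, -0.12 and, with DESeq2, -0.014, and at -0.10 to 0.18 in the leave-one-out fits. Gli3 was at 0.25 under quantile normalization. Without wild-type libraries 2 and 3, which leaves 1 wild-type library assumed to vary like the knockout libraries, Hhip was at -0.19, Gli1 at -0.34 and Gli2 at -0.37. In the leave-one-out fits Gli1 ranged from 0.13 to 0.79 and Gli2 from -0.046 to 0.43. Quantile normalization moved the median of all genes by 0.12 and upper quartile scaling by -0.14 on the log2 scale, and relative to that median Shh was at -1.62 and -1.74 and Ihh at 1.47 and 1.73. The filters moved it by -0.11 (none) and 0.11 (a minimum of 50).

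Cldn18 ranged from -0.82 to -0.55 in the leave-one-out fits. Genes called lower over all genes numbered 3733, against 2024 in the authors' deposited table and 2483 without wild-type libraries 2 and 3. The 5 pathway lists, with 11, 3, 19, 17 and 34 genes tested, together had 14 genes higher and 19 lower. Over all genes tested 23.2% were called higher and 21.4% lower. These counts were not tested against that background and are no result about the pathway. Higher calls numbered 7 without wild-type libraries 2 and 3 and 9 to 16 in the leave-one-out fits. Lower calls numbered 11 in the authors' deposited table, 12 without those libraries and 12 to 18 in the leave-one-out fits. edgeR called 3 genes of ligand processing higher and none lower, against 2 and 1. The log2 ratio of Ihh to Shh differed by 3.30 to 3.75 over its alternatives.

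The replicate numbers did not pair the libraries: deviations from group means correlated at -0.00344, 0.0213 and -0.173 for replicates 1, 2 and 3. A replicate block gave 3723 genes higher and 3621 lower over all genes, with adjusted p = 0.000314 for Shh, 3.96e-06 for Ihh and 0.0194 for Gas1. Under it Sufu, Gkn1 and Gkn2 lost their calls (adjusted p = 0.0563, 0.08004 and 0.199) and Boc was called lower (adjusted p = 0.0441).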
